A study of Homo sapiens with 6 samples.

Results

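The unfolded protein and ATF4 stress response was followed through 10 genes, HSPA5, HERPUD1, XBP1, ATF4, DDIT3, ATF3, ASNS, TRIB3, CHAC1 and SESN2, taken by symbol from the 32985 genes of the expression table. All 10 had a row and all 10 were among the 11725 genes tested, those whose FPKM averaged 1 or more in the 6 libraries. FPKM is a level, the sequenced fragments of a gene scaled by transcript length and by the fragments mapped in the library. The libraries were poly(A) RNA-seq of 8505C cells, a line of anaplastic thyroid cancer, labelled as 24 h, with 3 libraries from cells given control siRNA (siCtrl) and 3 from cells given siRNA against NUF2 (siNUF2), a subunit of the NDC80 complex that ties kinetochores to spindle microtubules. The labels give the genotype as WT for siCtrl and as NUF2 knockdown for siNUF2, name no further treatment, and number the libraries of each group 1 to 3. The knockdown was transient, in 1 cell line, and the sources used here name 1 siRNA sequence for NUF2 and none for the control.

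Cells meet misfolded protein in the endoplasmic reticulum (ER) with the unfolded protein response, which has 3 sensors in the ER membrane. IRE1 splices the XBP1 mRNA, ATF6 is cut free by the Golgi proteases S1P and S2P to enter the nucleus, and PERK phosphorylates the translation factor eIF2, which slows protein synthesis and favours translation of ATF4. Other eIF2 kinases reach ATF4 from amino acid shortage and other stresses, and ATF4 then raises genes of amino acid supply and, with DDIT3, genes that set the outcome of long stress. Splicing of XBP1 and translation of ATF4 are not visible in counts per gene, so the values below are mRNA levels only.

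The 10 genes fall into a group tied to ER folding (HSPA5, HERPUD1, XBP1), the factors ATF4, DDIT3 and ATF3, and the targets ASNS, TRIB3, CHAC1 and SESN2. Sequence features of their promoters, which the choice of genes did not use, were read from RefSeq (GRCh38.p14), in windows of 250 bases before to 50 bases after 17 annotated starts of the 10 genes. Both strands were searched for the ER stress element (ERSE), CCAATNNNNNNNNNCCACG, for the core bound by CEBP and ATF factors (CARE), TGATGNAAN, and for the CRE-like core TGACGT. No matches of different motifs overlapped in the sequences printed. The ERSE was found for 2 of the 10 genes, HSPA5 and XBP1, and in 27 of all 35116 promoters (0.0769%, or 0.0916% of genes). The 250 bases before the start are shown for both, since this exact pattern was found in the windows of no other gene of the 10. They are 5′ to 3′, from chr9:125241344-125241593 (HSPA5, minus strand) and chr22:28800570-28800819 (XBP1, minus strand), and capitals mark the ERSE in both and the TGACGT further upstream in HSPA5.
HSPA5: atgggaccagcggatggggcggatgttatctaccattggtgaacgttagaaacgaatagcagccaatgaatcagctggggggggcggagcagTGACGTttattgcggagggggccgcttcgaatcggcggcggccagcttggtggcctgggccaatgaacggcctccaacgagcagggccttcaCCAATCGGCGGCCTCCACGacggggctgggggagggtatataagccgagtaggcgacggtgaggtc
XBP1: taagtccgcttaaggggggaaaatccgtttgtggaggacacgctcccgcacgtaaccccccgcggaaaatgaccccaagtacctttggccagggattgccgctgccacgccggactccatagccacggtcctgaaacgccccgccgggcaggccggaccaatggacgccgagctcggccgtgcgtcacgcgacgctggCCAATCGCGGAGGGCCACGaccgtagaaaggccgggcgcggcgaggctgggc

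In HSPA5 the ERSE began at position -66 from the start and the CRE-like core at -158, and in XBP1 the ERSE began at -52. The CRE-like core was in 7.98% of all promoters. The CARE core was found for 4 of the 10 genes, HERPUD1, ATF3, ASNS and CHAC1, and in 3.61% of all promoters (4.45% of genes). ASNS, HERPUD1 and CHAC1 are shown to set the same core side by side in a gene of ER-associated degradation and in genes of amino acid and glutathione metabolism. The sequences are from chr7:97872409-97872658 (ASNS, minus strand), chr16:56931892-56932141 (HERPUD1, plus strand) and chr15:40953221-40953470 (CHAC1, plus strand). Capitals mark the core, which read forward in ASNS at -68 and in the reverse orientation in HERPUD1 at -177 and CHAC1 at -210.
ASNS: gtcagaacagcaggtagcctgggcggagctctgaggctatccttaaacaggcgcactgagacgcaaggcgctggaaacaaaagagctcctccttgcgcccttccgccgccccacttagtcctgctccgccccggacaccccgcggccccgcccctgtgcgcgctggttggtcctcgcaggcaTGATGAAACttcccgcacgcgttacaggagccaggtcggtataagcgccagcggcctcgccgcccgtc
HERPUD1: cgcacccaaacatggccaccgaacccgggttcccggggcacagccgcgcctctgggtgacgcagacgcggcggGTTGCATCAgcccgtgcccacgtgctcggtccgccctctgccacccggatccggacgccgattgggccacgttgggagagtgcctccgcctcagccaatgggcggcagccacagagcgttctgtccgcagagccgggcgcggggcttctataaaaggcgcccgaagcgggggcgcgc
CHAC1: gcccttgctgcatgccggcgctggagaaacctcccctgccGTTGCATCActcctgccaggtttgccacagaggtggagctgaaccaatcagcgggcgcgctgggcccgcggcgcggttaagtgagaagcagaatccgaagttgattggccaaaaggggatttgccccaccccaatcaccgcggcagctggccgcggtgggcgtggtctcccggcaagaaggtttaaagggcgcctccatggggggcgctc

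None of the 3 motifs was found in these windows of ATF4, DDIT3, TRIB3 or SESN2, and ATF3 held the CARE core at -191 in 1 of its promoters. XBP1 held the ERSE, and ASNS the CARE core, in 1 promoter only as well, with no match in the other. A match states only that the letters are present, and a missing match only that the exact pattern was not in the window. Variants of these elements were not searched.

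The library totals lay between 61257859 and 69755291 counts, with 5.46% to 7.06% of counts from mitochondrial genes. NUF2 was at 14.8, 14.5 and 12.2 FPKM in siCtrl 1, 2 and 3 and at 1.53, 2.05 and 1.56 FPKM in siNUF2 1, 2 and 3, a log2 fold change of -2.99 (SE 0.17, adjusted p = 5.1e-04 in edgeR), so the targeted gene matched the labels. Of the thyroid markers, TG, SLC5A5 and FOXE1 were at 0 to 0.0281 FPKM in the 6 libraries and PAX8 was at 0.379 to 0.774, while NKX2-1 was at 14.6 to 21.5. Of the epithelial markers, KRT8 was at 72.0 to 99.2 and KRT18 at 137 to 205 FPKM, with EPCAM at most 0.243. Of markers of other cells, PTPRC, PECAM1 and COL1A1 were at most 1.63 FPKM and CDH5 at most 2.72. In bulk RNA, fewer cells with a transcript and less transcript per cell cannot be told apart.

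MAGT1 is a magnesium transporter of the study and also a subunit of the oligosaccharyltransferase that adds N-glycans to proteins entering the ER, which is the reason to read the stress genes beside it. It stood at 11.7, 12.8 and 15.2 FPKM in siCtrl 1, 2 and 3 and at 5.85, 4.80 and 6.60 in siNUF2 1, 2 and 3. The groups did not overlap. MAGT1 fell by 1.18 on the log2 scale (SE 0.15, adjusted p = 0.00746, quasi-likelihood test of edgeR, adjusted by Benjamini-Hochberg), to 43.4% of the control mean. TUSC3, the subunit that can take the place of MAGT1, differed by a log2 fold change of 0.05 (SE 0.10, adjusted p = 0.855), at 12.4 to 14.9 FPKM. The transporters NIPA1 (-1.09, adjusted p = 0.00953) and NIPAL1 (-1.11, adjusted p = 0.0261) were lower in the same libraries. Because NUF2 and MAGT1 were low in the same 3 libraries, values that go with 1 of them and with the other cannot be told apart.

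None of the 10 stress genes passed the test between siNUF2 and siCtrl (0 of 10), where 3.99% of all genes tested did (468 of 11725, 179 up and 289 down). Of the 10, 1 had an unadjusted p under 0.05 in edgeR, TRIB3, against 18.2% of all genes tested. DESeq2 called 1, again TRIB3, against 8.47% of all genes to which it gave an adjusted p. These counts of 1 in 10 are near or below the share over all genes. The fitted change was higher in siNUF2 for 4 genes and lower for 6, and ranged from -0.48 (DDIT3) to 0.51 (TRIB3) on the log2 scale, with a median of -0.16 where all genes tested had 0.01. With the replicate number as a block, edgeR called 1 of the 10, TRIB3, where it called 14.5% of all genes tested. The FPKM of the groups did not overlap for 2 of the 10, TRIB3 and XBP1, against 23.9% of all genes tested. A single-gene exact permutation test of 3 against 3 libraries cannot give a two-sided p below 0.1, and it gave 0.1 for these 2 genes and 0.4 to 0.9 for the other 8.

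**Figure D1:**
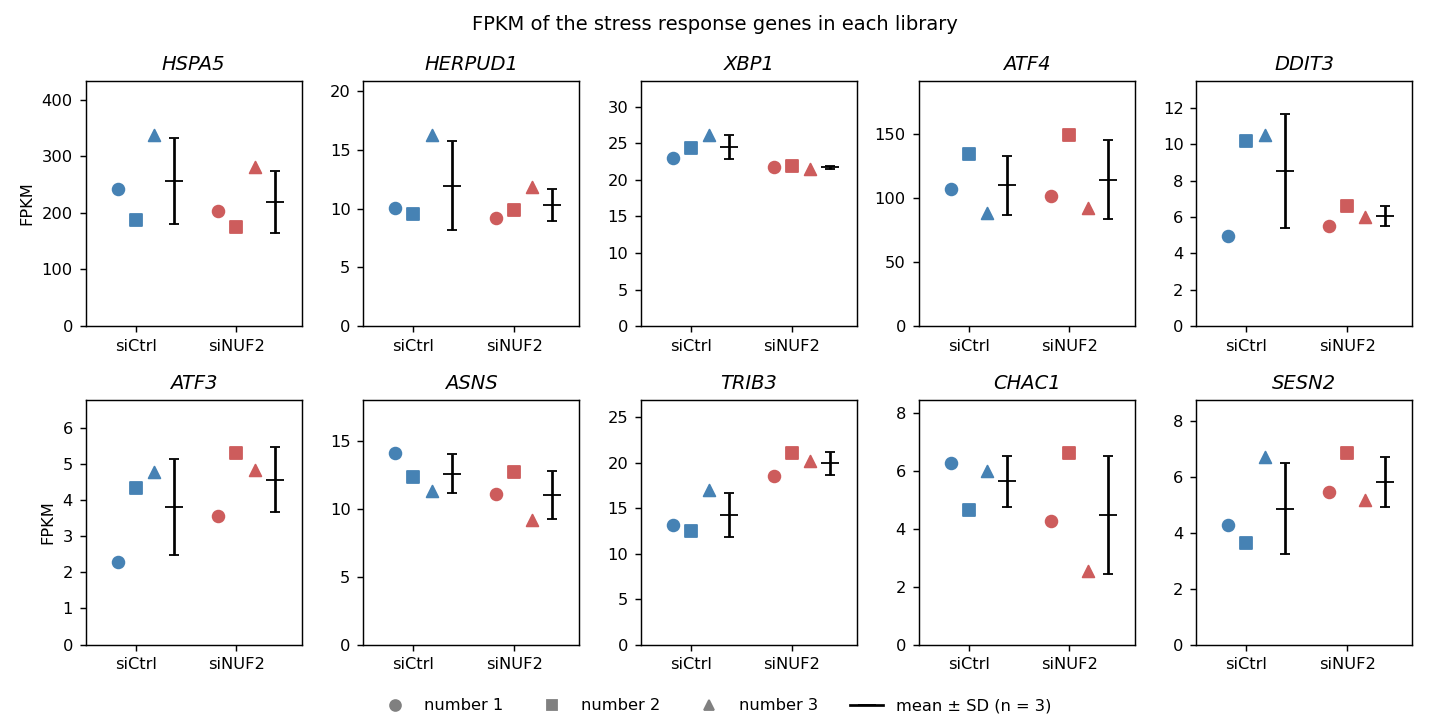
FPKM of the 10 stress genes in each library, with siCtrl in blue and siNUF2 in red, the replicate number by the shape of the point, and bars at the mean ± SD (n = 3). The groups are apart for TRIB3 and XBP1 and overlap for the other 8, and the libraries numbered 3 are the highest for HSPA5 and HERPUD1 in both groups.

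HSPA5 encodes BiP, the main Hsp70 chaperone of the ER lumen and the usual readout of ER stress. Its level was 242, 188 and 338 FPKM in siCtrl 1, 2 and 3 and 202, 175 and 281 FPKM in siNUF2 1, 2 and 3. Number 2 was lowest and number 3 highest in both groups, and the groups overlapped. At a mean of 256 ± 76.0 FPKM (SD, n = 3) in siCtrl and 219 ± 55.1 in siNUF2, the level stood at percentile 98.9 of the genes tested. The log2 fold change was -0.21 (SE 0.24, adjusted p = 0.722) without the block. When the quasi-likelihood fit also held the replicate number, HSPA5 had a similar change with a smaller SE (-0.19, SE 0.06). Its unadjusted p was then 0.0162 and its adjusted p 0.0824, so it did not pass in that fit either. Each siNUF2 library was below the siCtrl library of its number, by -0.26, -0.11 and -0.27 on the log2 FPKM scale for numbers 1, 2 and 3. Without siCtrl 3 the change of HSPA5 fitted without the block was 0.05.

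HERPUD1 encodes a protein of the ER membrane that helps to clear misfolded proteins. It was at 10.0, 9.57 and 16.3 FPKM in siCtrl and 9.25, 9.92 and 11.9 in siNUF2 in the order of numbers 1 to 3. The libraries numbered 3 were again the highest of each group, and siCtrl 3 stood above the rest. HERPUD1 had a log2 fold change of -0.19 (SE 0.21, adjusted p = 0.713), and 0.10 without siCtrl 3. In the table's annotation HERPUD1 overlaps 2 genes named AC012181 on the same strand.

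XBP1, the factor activated by IRE1, was the steadiest of the 10 in siNUF2. It was at 23.0, 24.3 and 26.2 FPKM in siCtrl 1, 2 and 3 and at 21.8, 21.8 and 21.5 FPKM in siNUF2. The siNUF2 libraries lay below the whole range of siCtrl, by a small margin. The means were 24.5 ± 1.60 and 21.7 ± 0.190 (SD, n = 3), and the log2 fold change of -0.15 (SE 0.09) had an adjusted p of 0.433. Counts per gene do not separate spliced from unspliced XBP1.

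ATF4 encodes the transcription factor on which the eIF2 kinases converge. It was at 107, 134 and 88.5 FPKM in siCtrl 1, 2 and 3 and at 102, 149 and 91.8 in siNUF2. Number 2 was highest and number 3 lowest in both groups, the reverse of HSPA5. The log2 fold change was 0.08 (SE 0.21, adjusted p = 0.895) with means of 110 ± 22.9 and 114 ± 30.7 (SD, n = 3), and it was -0.05 without siCtrl 3 and -0.17 without siNUF2 2.

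DDIT3 encodes CHOP, a factor induced by ATF4 that favours cell death in lasting stress. It was at 4.94, 10.2 and 10.5 FPKM in siCtrl and at 5.53, 6.63 and 6.002 in siNUF2. The library siCtrl 1 was below the other siCtrl libraries and below those of siNUF2, so the groups overlapped although the means were 8.56 ± 3.14 and 6.05 ± 0.554 (SD, n = 3). The log2 fold change of -0.48 had the second largest SE of the 10 genes, 0.29, and an adjusted p of 0.449. DDIT3 overlaps MARS1 and MBD6 on the other strand and MIR616 on its own strand in the table's annotation. The strand setting of the counting is not given in the sources used here, so reads of DDIT3 and of these genes may not be told apart.

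ATF3, an early stress factor downstream of ATF4, was at 2.30, 4.35 and 4.78 FPKM in siCtrl and 3.58, 5.31 and 4.85 in siNUF2. Number 1 was the lowest library of each group. Each siNUF2 library was above the siCtrl library of its number, by 0.64, 0.29 and 0.02 on the log2 FPKM scale for numbers 1, 2 and 3, and the log2 fold change was 0.28 (SE 0.28, adjusted p = 0.673).

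TRIB3 encodes a pseudokinase that is induced by ATF4 and DDIT3 and acts back on both. It was at 13.1, 12.5 and 17.0 FPKM in siCtrl 1, 2 and 3 and at 18.6, 21.1 and 20.2 FPKM in siNUF2. Every siNUF2 library was above every siCtrl library. The mean was 14.2 ± 2.41 FPKM in siCtrl and 19.9 ± 1.27 in siNUF2 (SD, n = 3), 140% of control. The log2 fold change of 0.51 (SE 0.14) had an unadjusted p of 0.0057 and an adjusted p of 0.0934 in edgeR. TRIB3 passed with the replicate number as a block (0.52, SE 0.11, adjusted p = 0.0192) and in DESeq2 (adjusted p = 0.0193). It was the 1 gene of the 10 whose call turned on the model, and the log2 fold change stayed between 0.42 and 0.66 with any 1 library left out, at adjusted p from 0.0531 to 0.246.

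ASNS, asparagine synthetase, is a standard ATF4 target in amino acid shortage. It was at 14.1, 12.4 and 11.3 FPKM in siCtrl and at 11.1, 12.7 and 9.18 in siNUF2. The groups overlapped, with a log2 fold change of -0.17 (SE 0.14, adjusted p = 0.601). ASNS overlaps AC005326 on the other strand and AC079781 on its own.

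CHAC1, an enzyme that breaks down glutathione, was at 6.29, 4.65 and 5.997 FPKM in siCtrl and at 4.28, 6.62 and 2.54 in siNUF2. It held the widest spread of the 10 within siNUF2, 2.61 times from lowest to highest. Its log2 ratio of siNUF2 to siCtrl FPKM was -0.55 for number 1, 0.51 for number 2 and -1.24 for number 3. The fitted change was -0.31 (SE 0.33, adjusted p = 0.698).

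SESN2, a leucine sensor that restrains mTORC1, was at 4.27, 3.64 and 6.70 FPKM in siCtrl and at 5.45, 6.86 and 5.19 in siNUF2. The highest library was number 3 in siCtrl and number 2 in siNUF2. Its log2 fold change was 0.28 (SE 0.24, adjusted p = 0.620).

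**Figure D2:**
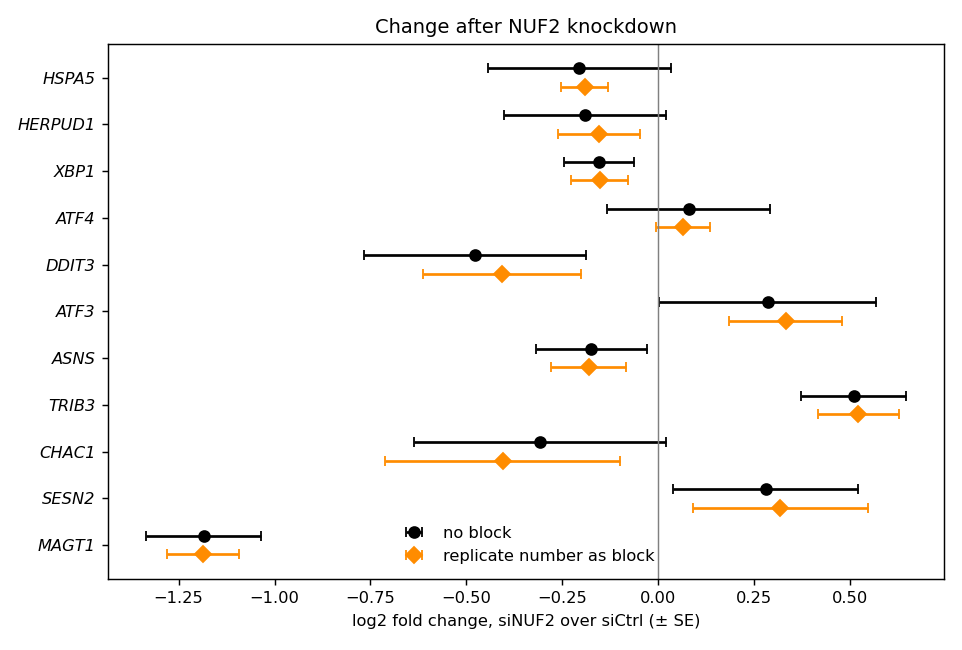
Log2 fold change of the 10 stress genes and MAGT1 in siNUF2 over siCtrl, with its SE, from edgeR without a block (black circles) and blocked by replicate number (orange diamonds). The stress genes lie between -0.48 and 0.51 without the block, and MAGT1 lies at -1.18, outside their range.

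The libraries were next compared by replicate number. An F-test of the replicate numbers in a model with the group, in edgeR's quasi-likelihood fit, called 2 of the 10, HSPA5 and ATF4, where it called 7.60% of all genes tested. Of the 10, 4 had an unadjusted p under 0.05 in this test, against 27.1% of all genes, and DESeq2 called 4, against 18.1%, which added HERPUD1 and ATF3. Neither the labels nor the study's methods say what a number shares.

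HSPA5 and ATF4 moved in opposite directions across the numbers. HSPA5 was 0.76 higher on the log2 scale in libraries numbered 3 than in those numbered 2 (SE 0.08), and 0.49 higher in 3 than in 1 (SE 0.08, adjusted p of the F-test = 0.0051). ATF4 fell by 0.65 from number 2 to number 3 (SE 0.09) and was 0.45 higher in 2 than in 1 (SE 0.09, adjusted p of the F-test = 0.0126). The ratio of highest to lowest FPKM of HSPA5 was 1.80 within siCtrl and 1.61 within siNUF2, and that of ATF4 was 1.52 and 1.63. With any 1 library left out, the adjusted p of the F-test stayed at or below 0.0117 for HSPA5 and at or below 0.0457 for ATF4. Both calls were lost with no filter on low values (0.227 for HSPA5 and 0.236 for ATF4) and with limma on log2(FPKM + 0.1) (0.0714 and 0.0946). The 4 markers of other cell types summed to 3.01 and 4.75 FPKM in siCtrl 2 and siNUF2 2 and to 1.10 to 2.37 FPKM in the other 4 libraries. Among them the endothelial marker CDH5 was at 0.762, 1.87 and 0.590 FPKM in siCtrl 1, 2 and 3 and at 0.496, 2.72 and 0.541 in siNUF2, highest in number 2 as ATF4 was. PECAM1, the other endothelial marker, was lowest in number 2 within siCtrl (0.244 FPKM) and highest in number 3 within siNUF2 (0.403). PTPRC was highest in number 1 of both groups, and COL1A1 in siCtrl 3 and siNUF2 2. The part of these markers in the differences by number was not tested.

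HERPUD1 was 0.52 higher in number 3 than in number 2 (SE 0.13, adjusted p of the F-test = 0.0581). ATF3 was 0.75 higher both in number 2 and in number 3 than in number 1 (SE 0.18, adjusted p = 0.0633). DDIT3 was 0.64 higher in number 2 than in 1 and 0.61 higher in 3 than in 1 (SE 0.25 for both, adjusted p = 0.218). The remaining 5 genes had adjusted p from 0.205 (ASNS) to 0.719 (XBP1), TRIB3 among them at 0.351. By FPKM, the same number was highest in both groups for 3 of the 10 genes, HSPA5, HERPUD1 and ATF4, against 53.5% of all genes tested.

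The other genes of the pathways were taken from 7 lists, 97 genes in all, of which 91 were tested. Against siCtrl, 5 of the 91 passed in edgeR (1 up, 4 down, 5.49%), near the 3.99% of all genes tested. With the block 22 passed (5 up, 17 down, 24.2%), against 14.5% of all genes. The median log2 fold change over the 91 was -0.03, where all genes tested had 0.01. DESeq2 called 8 of them (8.79%), near the 8.29% of all genes tested. In edgeR 21 had an unadjusted p under 0.05 (23.1%), against 18.2% of all genes tested. The counts of each list below stand beside the same shares of all genes: 3.99% in edgeR, 14.5% with the block, 8.29% in DESeq2 and 18.2% unadjusted. The 6 genes that were not tested were DERL3, SLC1A4, GDF15, FGF21, SESN3 and BBC3, each below the filter.

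Among the sensors of the response and the control of eIF2, 2 of 17 passed, and both encode proteases that cut ATF6. ATF6 (-0.10, adjusted p = 0.695) and ATF6B (0.39, adjusted p = 0.298), named here after their values were seen, did not pass. MBTPS1, which encodes S1P, was at 9.12, 8.80 and 8.47 FPKM in siCtrl 1, 2 and 3 and at 13.5, 12.7 and 12.2 in siNUF2, and rose by a log2 fold change of 0.56 (SE 0.09, adjusted p = 0.0145). MBTPS2, which encodes S2P, was at 3.75, 3.68 and 3.60 FPKM in siCtrl and at 2.22, 2.35 and 2.54 in siNUF2, and fell by 0.61 on the log2 scale (SE 0.11, adjusted p = 0.0261). The 2 proteases, which cut ATF6 in turn, thus went in opposite directions, with no overlap of the groups for either. MBTPS2 lost its call when any 1 of the 6 libraries was left out (adjusted p 0.0572 to 0.102, log2 fold change -0.67 to -0.56). MBTPS1 lost it without siCtrl 1, siCtrl 2, siCtrl 3 or siNUF2 1 (0.0512 to 0.0718) and passed without siNUF2 2 (0.0432) or siNUF2 3 (0.0373), with a log2 fold change of 0.53 to 0.59 throughout. Under the block the adjusted p was 0.00276 for MBTPS1 and 0.00967 for MBTPS2. EIF2AK3, which encodes PERK, is named here after its values were seen. It was at 1.94, 2.49 and 2.07 FPKM in siCtrl and 0.824, 1.30 and 1.32 in siNUF2, with a log2 fold change of -0.89 (SE 0.23) at an adjusted p of 0.0843, and of 0.0123 with the block. With the block, 5 of the 17 passed (1 up, 4 down). DESeq2 called 4 of the 17 (23.5%), and 6 had an unadjusted p under 0.05 in edgeR (35.3%), both above the shares of all genes.

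Of the ER chaperones and folding enzymes, 1 of 18 passed. PDIA3, a disulfide isomerase that folds glycoproteins with calnexin and calreticulin, was at 114, 110 and 137 FPKM in siCtrl 1, 2 and 3 and at 60.7, 60.9 and 74.5 in siNUF2. It fell by 0.86 on the log2 scale (SE 0.13, adjusted p = 0.0117), and without siNUF2 1 its adjusted p was 0.0611. The median of the list was 0.10, and HSPA5, at -0.21, lay below it. DESeq2 called 2 of the 18, and 2 had an unadjusted p under 0.05 in edgeR. With the block 4 of 18 passed (2 up, 2 down). One of them, ERO1A, the oxidase that recharges disulfide isomerases, is named after its values were seen: it was at 10.5, 14.8 and 16.4 FPKM in siCtrl and 21.2, 20.3 and 29.0 in siNUF2 (0.77, SE 0.20, adjusted p = 0.0776, and 0.00397 with the block).

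Of the genes of ER-associated degradation, 1 of 16 passed. EDEM3, a mannosidase that trims N-glycans of misfolded glycoproteins, was at 3.37, 3.13 and 3.06 FPKM in siCtrl 1, 2 and 3 and at 1.49, 1.21 and 1.62 in siNUF2. It fell by 1.13 on the log2 scale (SE 0.15, adjusted p = 0.0084), and kept its call with any 1 library left out (adjusted p 0.0201 to 0.0444). With the block 4 of 16 passed, all down. DESeq2 called 1 of the 16, and 4 had an unadjusted p under 0.05 in edgeR.

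Genes of amino acid supply held 1 call in 3 lists. SLC7A11, the cystine transporter that feeds glutathione synthesis and is induced through ATF4, was at 6.02, 4.82 and 4.84 FPKM in siCtrl 1, 2 and 3 and at 2.51, 3.02 and 2.11 in siNUF2. It fell by 1.02 on the log2 scale (SE 0.16, adjusted p = 0.0158), while its adjusted p was 0.0609 without siCtrl 1 and 0.0752 without siNUF2 1. It was the 1 gene of the 7 transporters tested that passed, and 3 of the 7 passed with the block (2 up, 1 down). DESeq2 called 1 of the 7, and 2 had an unadjusted p under 0.05 in edgeR. Of the 10 enzymes of amino acid synthesis and one-carbon metabolism, 0 passed in edgeR with or without the block. Without it 1 had an unadjusted p under 0.05, and DESeq2 called 0. The serine enzyme PSPH stood at 0.36 on the log2 scale at an adjusted p of 0.265, and the cysteine enzyme CTH at 0.41 with an adjusted p of 0.428. Of the 12 aminoacyl-tRNA synthetases, 0 passed in edgeR, 3 had an unadjusted p under 0.05 and DESeq2 called 0, with 3 called with the block, all down. For TARS1 it was -0.29 on the log2 scale (adjusted p = 0.129) and for WARS1 -0.35 (adjusted p = 0.23), and both were among the 3 that passed with the block (adjusted p 0.0246 and 0.026).

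Of the 11 other stress-induced regulators tested, 0 passed in edgeR, 3 had an unadjusted p under 0.05, DESeq2 called 0, and 3 passed with the block, all down. The growth factor VEGFA stood at -0.25 on the log2 scale (adjusted p = 0.261). TNFRSF10B, the death receptor that DDIT3 induces, was at 16.3, 20.8 and 20.8 FPKM in siCtrl and 14.8, 14.3 and 15.0 in siNUF2 (-0.37, adjusted p = 0.141, and 0.0389 with the block).

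**Figure D3:**
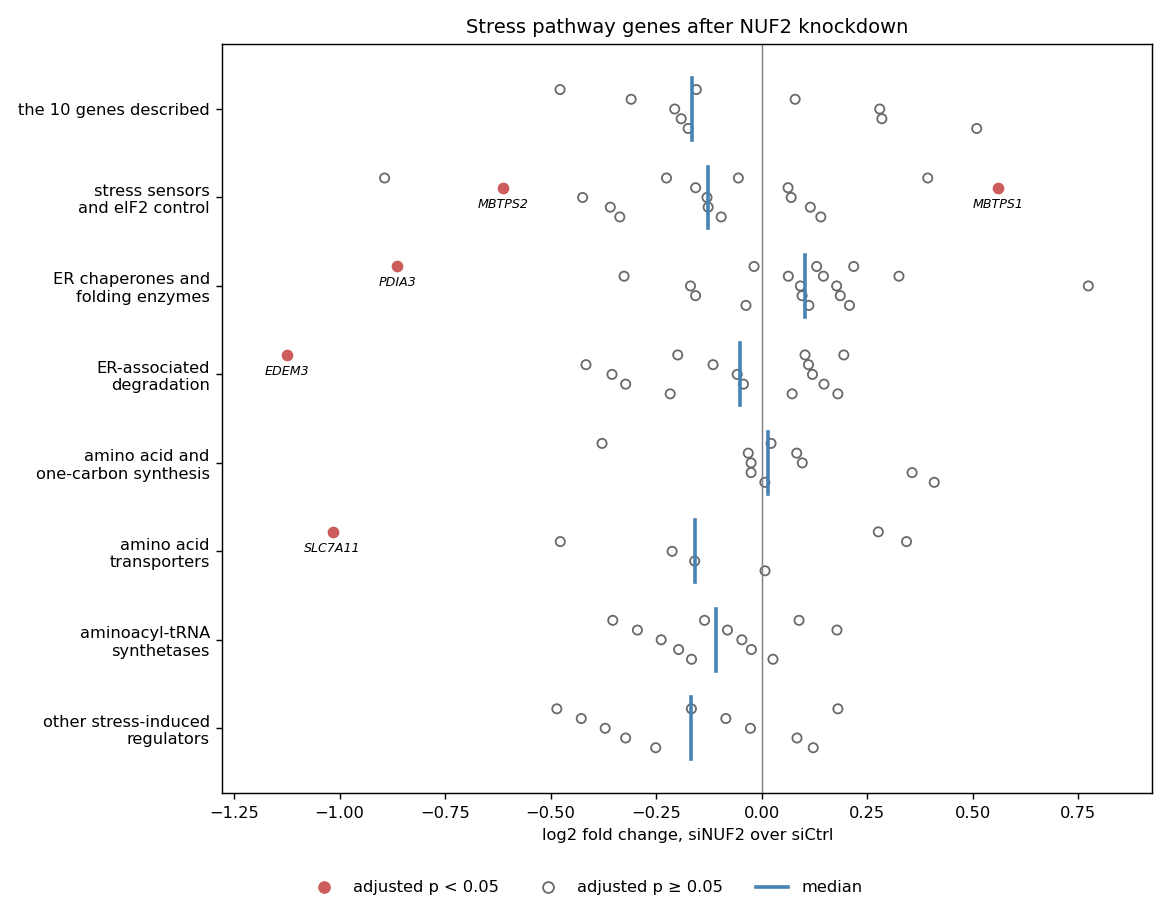
Log2 fold change in siNUF2 over siCtrl for the 10 stress genes and the tested genes of the 7 pathway lists, one point a gene, filled where the adjusted p of edgeR was under 0.05, with the median of each list as a bar. The 5 filled points are MBTPS1 on the right and MBTPS2, PDIA3, EDEM3 and SLC7A11 on the left, and no gene of the 10 is filled.

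The difference between libraries numbered 3 and 2, the extremes of HSPA5 and of ATF4, was then described over the same lists. It was chosen after the values of these genes were seen, and no list was tested. All 18 ER chaperones and folding enzymes were higher in number 3 than in number 2, as HSPA5 was, with a median log2 difference of 0.32, where 49.2% of all genes tested were higher and their median was -0.01. Of the genes of ER-associated degradation, 12 of 16 were higher (median 0.17). On the side of ATF4, 8 of 10 enzymes of amino acid synthesis and one-carbon metabolism (median -0.23), 7 of 7 transporters (median -0.24) and 11 of 12 aminoacyl-tRNA synthetases (median -0.25) were lower in number 3. ASNS was lower in number 3 too, by -0.31 (SE 0.12). TRIB3 (0.19, SE 0.13) and SESN2 (0.24, SE 0.28) were not lower. Of the sensors and the control of eIF2, 10 of 17 were higher (median 0.04), and of the other regulators 6 of 11 (median 0.02).

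By the F-test of replicate number, 13 of the 91 pathway genes passed (14.3%), against the 7.60% of all genes given above. The genes named here were outside the rule for named genes and were chosen after their values were seen. DNAJC3, a BiP co-chaperone and inhibitor of PERK, was at 4.20, 4.35 and 8.59 FPKM in siCtrl 1, 2 and 3 and at 5.38, 3.92 and 10.4 in siNUF2. Number 3 was above both other numbers in each group, and the log2 difference of 3 from 2 was 1.18 (SE 0.14, adjusted p of the F-test = 0.0075). HSP90B1, the ER form of Hsp90, and EDEM1 were also highest in number 3, with log2 differences of 3 from 2 of 0.41 and 0.54. HYOU1 (0.39) and VCP (0.35) passed too, with the lowest level in number 2 and the highest in number 1. The 8 called genes that were highest in number 2 were EIF2AK4, PYCR1, CBS, SLC38A2, AARS1, CARS1, SARS1 and JDP2. Among them CBS was at 1.57, 3.44 and 1.32 FPKM in siCtrl 1, 2 and 3 and at 1.34, 2.79 and 0.660 in siNUF2. CBS, which joins serine and homocysteine, had the widest log2 difference of the 13, -1.70 for 3 against 2 (SE 0.23, adjusted p of the F-test = 0.0118).

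**Figure D4:**
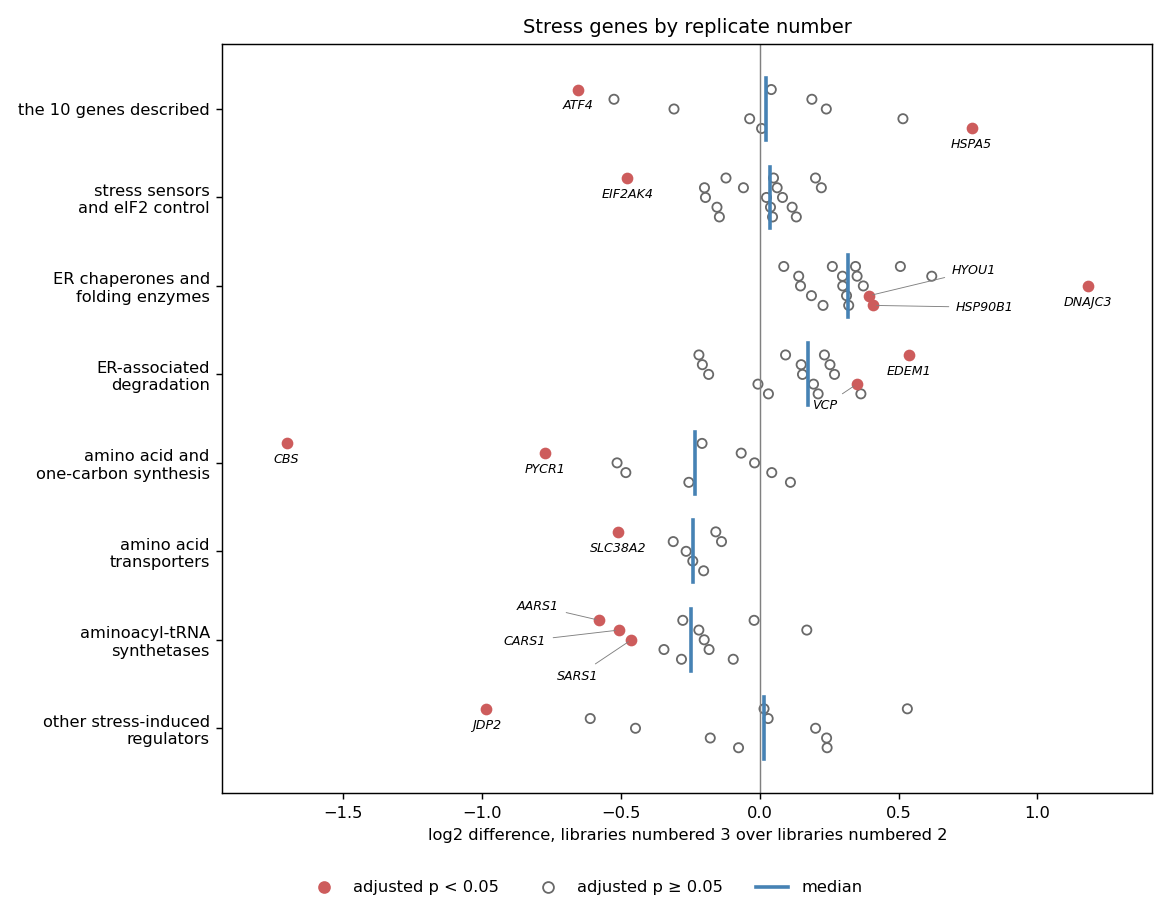
Log2 difference of libraries numbered 3 over those numbered 2, from the fit with the group, for the 10 stress genes and the pathway lists, one point a gene, filled where the F-test of replicate number had an adjusted p under 0.05, with list medians as bars. The ER chaperones lie right of 0, with DNAJC3 at 1.18, and the transporters and nearly all synthetases lie left of it, while HSPA5 and ATF4 stand at the right and left ends of the 10.

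The transcripts were also read for TATGGAA, the 7-base match to positions 2 to 8 of the NUF2 siRNA guide strand. In the canonical transcripts of GENCODE release 44 on GRCh38, 0 of the 10 stress genes held it in the 3′ UTR, where 14.9% of 10272 tested genes with such a region did, and 1 of the 10, HSPA5, held it in the coding sequence, where 14.7% did. Of the 5 pathway genes that passed, PDIA3, EDEM3 and SLC7A11 held it in the 3′ UTR, and MBTPS1 and MBTPS2 held it in no annotated transcript. The magnesium transporters MAGT1, NIPA1 and NIPAL1, all lower in siNUF2, held it in the 3′ UTR as well. Over the 91 pathway genes tested, 12 held it in the 3′ UTR (13.2%), near the share of all genes. The 9 of them that did not pass without the block were ATF6, EIF2AK2, ERO1B, SEL1L, DERL2, MTHFD2, SLC38A2, WARS1 and TNFRSF10B. Their log2 fold changes ran from -0.37 (TNFRSF10B) to 0.10 (MTHFD2), and TUSC3 held the match too, at 0.05. With the block, EIF2AK2 (adjusted p = 0.0161), DERL2 (0.0312), WARS1 (0.026) and TNFRSF10B (0.0389) passed in edgeR, all lower in siNUF2. ATF6, ERO1B, SEL1L, MTHFD2 and SLC38A2 did not. In that fit 22 of the 91 pathway genes passed (24.2%). NIPA1 and NIPAL1 passed the test without the block, and their sites are not shown. The sites of PDIA3, EDEM3, SLC7A11 and MAGT1, which also passed, are shown. They are 5′ to 3′ on the transcript strand, with the match in capitals, from chr15:43771382-43771406 (PDIA3, plus strand), chr1:184692222-184692246 (EDEM3, minus strand), chr4:138164298-138164322 and chr4:138164269-138164293 (SLC7A11, minus strand) and chrX:77828968-77828992 (MAGT1, minus strand).
PDIA3: tgcactgttTATGGAAataccagga
EDEM3: tatacagtaTATGGAAggatagata
SLC7A11: ttttcatctTATGGAAactcttgat
SLC7A11: gtgcttttgTATGGAAtaaattttg
MAGT1: agtgaacttTATGGAAcatttaatt

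Whether the matches have a part in the levels of PDIA3, EDEM3, SLC7A11, MAGT1, NIPA1 or NIPAL1 was not tested.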

How the data were processed

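Poly(A) RNA-seq of 3 siCtrl and 3 siNUF2 libraries was analysed. The authors used fastp for quality control, HISAT2 for alignment to GRCh38 and StringTie for expression, per the labels and the study's methods; versions and the tool and strand setting behind the counts are not given in the sources used here. The authors deposited FPKM, scaled by length and library size, and raw whole-number counts per gene. All 12 columns of values were used.

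Counts were tested with edgeR 4.0.16 in R 4.3.3 (TMM normalization, quasi-likelihood F-test, genes whose FPKM averaged 1 or more, Benjamini-Hochberg over all 11725 genes, called at an adjusted p under 0.05). The SE of a log2 fold change is its size over the square root of F. The replicate number was tested with an F-test of its coefficients in a model with the group. The code was tested on simulated data. The sources do not say whether libraries of a group came from separate cultures, so p-values measure the spread between these libraries, which may be technical. Within each group, each pair of libraries differed beyond sampling noise (90.1 to 132 for chi-square over its degrees of freedom). Numbers 1 to 3 pair the libraries, since deviations from the group means correlated at 0.423, 0.313 and 0.431 for same numbers and from -0.276 to -0.138 for others, a pairing seen in the data and not stated in the labels. Deviations cancel out within each group, so positive values for same numbers leave the others negative on average. The negative values are therefore not separate support for the pairing.

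The 10 genes, the gene lists and the lists' names were chosen with earlier results of these data known. Named were all 10, NUF2, MAGT1, and from each list the genes that passed (at most 4) or, where none did, the 2 with the smallest p; others are marked where they appear. Alternatives were DESeq2 1.42.0 and its size factors in edgeR, no filter, a mean FPKM of at least 5, limma 3.58.1 on log2(FPKM + 1) and log2(FPKM + 0.1), the study's F-test and its rule (ratio over 2 or under 0.5 with an unadjusted p under 0.05), the replicate block, and leaving out each library. Tables used pandas 2.3.3, scipy 1.17.1 and numpy 2.4.6, and plots matplotlib 3.10.9, in Python 3.11.15. TSHR, a thyroid marker, was not analysed here, and another thyroid marker is not reported here.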

Additional observations from a re-analysis of the deposited data

How the results depend on the processing

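The 0 calls among the 10 stress genes became 1, TRIB3, with DESeq2 and under the replicate block, and stayed at 0 under the other alternatives, with 0 to 0 when single libraries were left out. By replicate number, the 2 calls became 4 with DESeq2, 0 with no filter and 0 with limma on log2(FPKM + 0.1), and 2 to 5 with single libraries left out (5 without siNUF2 1, 4 without siNUF2 3). HSPA5 then had an adjusted p of 0.227 with no filter and 0.0714 with limma on log2(FPKM + 0.1), and ATF4 of 0.236 and 0.0946. The direction of 3 genes turned, none of them called: HSPA5 to 0.048, HERPUD1 to 0.10 and ATF4 to -0.05 on the log2 scale without siCtrl 3, and ATF4 to -0.17 without siNUF2 2. With single libraries left out, HSPA5 ran from -0.42 to 0.048, HERPUD1 from -0.33 to 0.10 and ATF4 from -0.17 to 0.25.

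The 5 calls among the pathway genes became 8 with DESeq2, 22 with the replicate block, 2 with a mean FPKM of at least 5, 0 with the study's F-test and 2 with its rule, and 1 to 4 with single libraries left out (2 without siCtrl 1, 3 without siCtrl 2, 3 without siCtrl 3, 1 without siNUF2 1). Over all genes, the 468 calls became 972 with DESeq2, 1705 with the block, 188 with no filter and 78 with the study's F-test, and 124 to 251 with single libraries left out. The 891 calls by replicate number became 2128 with DESeq2, 0 with no filter, 458 with limma on log2(FPKM + 1) and 138 on log2(FPKM + 0.1), and 606 to 1288 with single libraries left out. The log2 fold change of NUF2 stayed between -3.14 and -2.90 and that of MAGT1 between -1.30 and -1.07 with single libraries left out, and MAGT1 had -1.08 at an adjusted p of 0.0904 in the study's F-test. The study's own rule uses the unadjusted p, which was 0.00222 for MAGT1, and MAGT1 passed it. The cause of these changes was not tested, beyond the fewer libraries or genes that some alternatives hold.

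With 3 libraries a group, the SE of the 10 genes without the block ran from 0.09 to 0.33 on the log2 scale. Differences of that size were not detectable in that fit, and larger ones could be missed too. TRIB3, at a log2 fold change of 0.51 (SE 0.14), did not pass in it. Nor did EIF2AK3 of the pathway genes, at -0.89 (SE 0.23). With the replicate number as a block the SE ran from 0.06 (HSPA5) to 0.31 (CHAC1). Counts of the 10 genes were 375 to 98545 a library.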
